A study of Mus musculus with 12 samples.

Results

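The metabolic and hypoxia miRNAs described here are 8 mature miRNAs, given here with their probe set IDs: miR-378a-3p (MIMAT0003151_st), miR-378a-5p (MIMAT0000742_st), miR-22-3p (MIMAT0000531_st), miR-33-5p (MIMAT0000667_st), miR-103-3p (MIMAT0000546_st), miR-107-3p (MIMAT0000647_st), miR-122-5p (MIMAT0000246_st) and miR-210-3p (MIMAT0000658_st). They are 8 of the 1908 mature miRNA probe sets on the array and were chosen by ID, not by a threshold on a measured value, though with earlier results of these data known. Ventricles of 12 mice of the C57Bl/6J background were profiled, 3 in each of 4 groups: wild type at 4 months, Clock delta 19/delta 19 at 4 months, wild type at 21 months and Clock delta 19/delta 19 at 21 months. Hearts were taken at a single time of day, ZT 6 (hour 6 of the light period), so neither a rhythm nor a shift in its timing could be seen. The labels describe a homozygous mutation, whose product is a CLOCK protein that binds its partner but activates transcription poorly. It is not restricted to the heart, and whole ventricle was profiled, so every cell type of the ventricle contributed RNA. Fewer cells of a type and less RNA per cell cannot be told apart in such samples.

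MiRNAs are short RNAs that guide Argonaute proteins to messenger RNAs, mainly through the seed, bases 2 to 8 from the 5′ end, and lower the output of those messages. The 2 miR-378a strands come from the opposite arms of 1 hairpin, which lies within the gene for PGC-1β, a coactivator of mitochondrial genes. MiR-33 acts with its host Srebf2 in cholesterol balance, and miR-103 and miR-107 lie within pantothenate kinase genes, which make coenzyme A, and are known for dampening insulin signalling. MiR-22 is abundant in heart muscle and is linked to hypertrophy and metabolic remodelling. MiR-210 is the classic target of hypoxia-inducible factor and represses iron-sulphur cluster assembly in mitochondria, while miR-122 is the dominant miRNA of hepatocytes.

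Sequences are shown to set miR-103-3p beside miR-107-3p, its near-identical relative, and to show that the other miRNAs printed here have seeds of their own. They are RefSeq's, on GRCm38.p6, for 5 of the 8 miRNAs, matched by name, with the seed in capitals. The mature miR-22-3p lies at chr11:75463772-75463793 on the plus strand, within the span of the long noncoding RNA gene Mir22hg. MiR-33-5p lies at chr15:82198127-82198147 on the plus strand, within Srebf2. MiR-103-3p has a pair of identical copies on the plus strand, at chr2:131288103-131288125 within Pank2 and at chr11:35782447-35782469 within Pank3. MiR-107-3p lies at chr19:34820700-34820722 on the minus strand, within Pank1. MiR-210-3p lies at chr7:141221407-141221428 on the minus strand.
miR-22-3p: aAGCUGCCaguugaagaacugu
miR-33-5p: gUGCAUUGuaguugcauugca
miR-103-3p: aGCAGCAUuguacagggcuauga
miR-107-3p: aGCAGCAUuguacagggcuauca
miR-210-3p: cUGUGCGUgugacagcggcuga
MiR-103-3p and miR-107-3p share a seed and 22 of 23 bases, and the only difference, counted from 1 at the 5′ end of miR-103-3p, is G22C. Among the 1679 mature mouse miRNAs of the same table, no other carries that seed, and none but the miRNA itself carries the seed of miR-22-3p, miR-33-5p or miR-210-3p.

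Each value is the level of a probe set relative to its own median over the 12 arrays, on a scale taken as log2. Differences between hearts are kept by this form, but the level itself is not: whether a miRNA lay near background, and which of the 8 was most abundant, cannot be read from it. The defining markers of ventricle and of other cell types were not checked, because no other probe set ID could be named here. The array medians over the mature probe sets lay between -0.020 and 0.030. Clock 21-month replicate 2 stood apart, with a standard deviation across probe sets of 0.521 against 0.317 to 0.445 on the other 11 arrays, and its removal is given beside values named below that it decides. It was the highest of the 12 arrays for 3 of the 8 miRNAs and the lowest for 1.

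The 8 miRNAs differed widely in how much they varied from heart to heart. The standard deviation over all 12 hearts was 0.0546 for miR-22-3p, 0.0674 for miR-378a-3p, 0.0890 for miR-103-3p, 0.0981 for miR-107-3p and 0.122 for miR-378a-5p, against a median of 0.272 over all mature probe sets. These 5 lay in the lowest 5% of the 1908, with 0.419% of probe sets varying less than miR-22-3p and 3.25% varying less than miR-378a-5p. From the lowest to the highest heart, miR-22-3p spanned 1.14-fold and miR-378a-3p 1.16-fold. MiR-33-5p (standard deviation 0.215, with 33.0% of probe sets below it) and miR-210-3p (0.386, with 69.8% below it) lay in the body of the distribution. MiR-122-5p was at the other end, with a standard deviation of 0.795, 96.1% of probe sets below it and a span of 4.25-fold. A small standard deviation was measured without a level, so a strong, steady signal and a probe set that does not respond cannot be told apart.

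**Figure D1:**
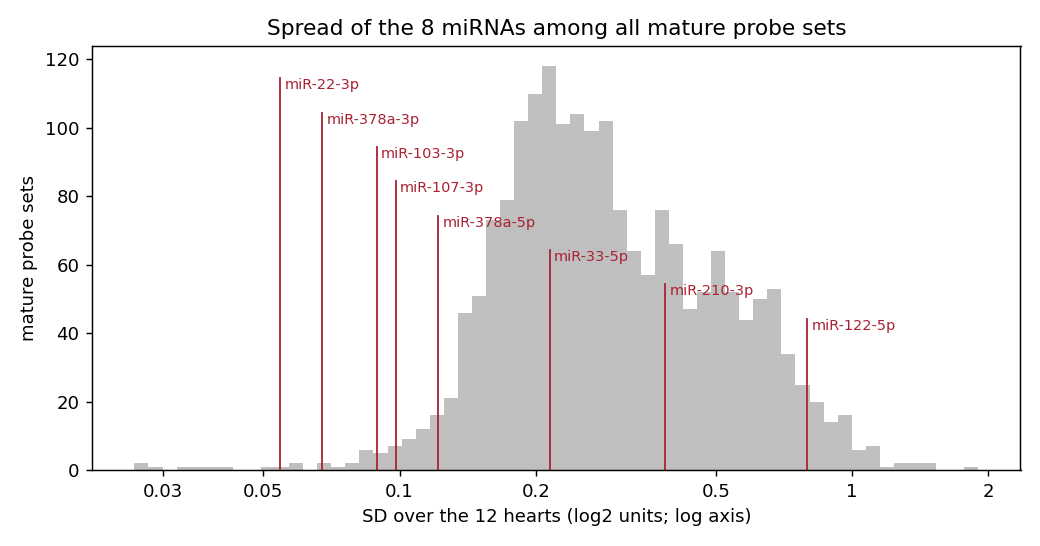
Histogram of the standard deviation of each of the 1908 mature probe sets over the 12 hearts (x axis, log2 units on a logarithmic axis; y axis, number of probe sets), with a red line for each of the 8 miRNAs. MiR-22-3p, miR-378a-3p, miR-103-3p, miR-107-3p and miR-378a-5p lie in the left tail, between 0.0546 and 0.122, and miR-122-5p lies in the right tail at 0.795.

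None of the 8 miRNAs passed an adjusted p under 0.05 in any of the 7 contrasts (limma over all 1908 mature probe sets). Of all mature probe sets, 0% were called for Clock against wild type at 4 months, at 21 months and averaged over ages and for the genotype by age interaction, 0.0524% for 21 against 4 months in wild type, 0.105% in Clock and 0.105% for age averaged over genotypes. A count of 0 among 8 is therefore near that background. At an unadjusted p under 0.05 there was 1 of the 8 in 21 against 4 months in Clock, miR-378a-5p, where 9.85% of all mature probe sets passed. In the other contrasts there were 0 of the 8, against 6.03% of all for genotype at 4 months, 5.87% for genotype at 21 months, 5.61% for age in wild type, 4.19% for the interaction, 6.13% for genotype averaged over ages and 11% for age averaged over genotypes.

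MiR-378a-5p, 1 strand of the hairpin within the gene for PGC-1β, gave the lowest p of the 56 tests (8 miRNAs in 7 contrasts). It was at -0.015, 0.045 and -0.051 in the wild-type hearts of 4 months and at 0.089, 0.089 and 0.025 in the Clock hearts of that age. At 21 months it was at 0.034, -0.00047 and 0.000468 in wild type and at -0.096, -0.312 and -0.219 in Clock. All 3 old Clock hearts lay below each of the other 9 hearts. The share of all mature probe sets that separate these hearts in this way was not counted. Old Clock differed from young Clock by -0.28 (SE 0.11, 95% interval -0.52 to -0.034), or 1.21-fold lower, with an unadjusted limma p of 0.0291 and an adjusted p of 0.426. Old Clock differed from old wild type by -0.22 (SE 0.11; limma, adjusted p = 0.831), while the wild-type hearts of the 2 ages differed by 0.018 (SE 0.11; adjusted p = 0.963). The age difference in Clock ran from -0.33 to -0.23 over the removals of single arrays, at -0.23 without Clock 21-month replicate 2, and its unadjusted limma p ran from 0.0220 to 0.0792. The test of whether age acted differently in the 2 genotypes gave -0.295 (SE 0.16; limma, adjusted p = 0.972). The Clock hearts of 21 months enter 3 of these comparisons, which are therefore not independent.

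The error attached to miR-378a-5p depended on how its variance was estimated. Its standard deviation within groups was 0.0628, but limma draws every probe set towards a common value, 0.242 here, and used 0.135. With its own variance alone, an alternative added after the data were seen, the difference between old and young Clock had an SE of 0.051 and an unadjusted p of 0.000643, and it still did not pass over the 1908 probe sets (ordinary linear model, adjusted p = 0.159). With ordinary variances the unadjusted p of miR-378a-5p was also under 0.05 for genotype at 21 months (0.00263), for the interaction (0.00358) and for age averaged over genotypes (0.00728). That of miR-378a-3p was under 0.05 for genotype at 21 months (0.0257) and averaged over ages (0.0192). The counts at that level were thus 2 of the 8 for genotype at 21 months (5.82% of all mature probe sets), 1 for age in Clock (9.8%), 1 for the interaction (4.14%), 1 for genotype averaged (6.76%) and 1 for age averaged (10.2%), with 0 in the other contrasts, and none passed after adjustment. The wider limma error applied to the other 4 steady miRNAs too, whose limma intervals are wider than their own spread would give.

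MiR-378a-3p, the other strand, spanned a narrower range. It was at 0.086, 0.058 and 0.0059 in young wild type, at 0.034, -0.0059 and -0.058 in young Clock, at 0.12, 0.075 and -0.028 in old wild type and at -0.088, -0.017 and -0.081 in old Clock. Its means were lower in Clock at both ages, but the groups overlapped, and the difference averaged over ages was -0.089 (SE 0.076; limma, adjusted p = 0.825). Old and young Clock differed by -0.052 for this strand (SE 0.11; limma, adjusted p = 0.918), against -0.28 for the 5p strand. Within each heart, the value of the 5p strand less that of the 3p strand was 0.078 ± 0.020 in young Clock, -0.057 ± 0.044 in young wild type, -0.045 ± 0.064 in old wild type and -0.15 ± 0.14 in old Clock (SD, n = 3). All 3 young Clock hearts (0.056 to 0.095) lay above the other 9, whose highest was 0.028. Without Clock 21-month replicate 2, the mean of the remaining 2 old Clock hearts was -0.074. This within-heart comparison was added after the values were seen and carries no test. Over the 12 hearts the strands had a Pearson correlation of 0.453, and 134 of the other probe sets followed miR-378a-5p more closely than its own partner strand did. Without Clock 21-month replicate 2 the correlation of the strands was 0.533, and the count of 134 was not recomputed.

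MiR-22-3p varied least of the 8. The young wild-type hearts were at 7.7e-05, -0.076 and -0.14, the young Clock hearts at -0.058, 0.046 and -0.023, the old wild-type hearts at 0.041, -7.8e-05 and -0.024, and the old Clock hearts at 0.016, 0.018 and 0.022. The groups overlapped in all 4 comparisons of 2 groups. The largest of these differences was between old and young wild type, at 0.079 (SE 0.11, 95% interval -0.16 to 0.31; limma, adjusted p = 0.934).

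Among the lipid and insulin miRNAs, miR-33-5p was marked by 1 heart. It was at -0.19, 0.056 and -0.11 in young wild type, at -0.092, 0.042 and 0.63 in young Clock, at 0.0089, -0.038 and 0.074 in old wild type and at -0.029, 0.25 and -0.0089 in old Clock. Young Clock replicate 3 was the highest of all 12, and the groups overlapped in each comparison. Young Clock differed from young wild type by 0.28 (SE 0.18, 95% interval -0.13 to 0.68; limma, adjusted p = 0.884), and by 0.058 without that heart. The age difference in Clock was -0.12 (SE 0.18; limma, adjusted p = 0.879) and turned to 0.097 without it.

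MiR-103-3p and miR-107-3p, which differ by the single base given above, were both highest in the same heart, and within a heart their values differed by -0.074 to 0.14. MiR-103-3p was at 0.0011, -0.0011 and -0.075 in young wild type, at -0.016, -0.0078 and -0.026 in young Clock, at 0.055, 0.032 and -0.0021 in old wild type and at 0.029, 0.29 and 0.0084 in old Clock. MiR-107-3p was at -0.038, -0.15 and -0.00096 in young wild type, at -0.015, 0.024 and -0.14 in young Clock, at 0.017, 0.014 and -0.075 in old wild type and at 0.028, 0.24 and 0.00096 in old Clock. Clock 21-month replicate 2 was that highest heart. The 3 old Clock hearts all lay above the 3 young Clock hearts for miR-103-3p, with a difference of 0.12 (SE 0.12; limma, adjusted p = 0.789), while the groups overlapped for miR-107-3p, with a difference of 0.13 (SE 0.12; limma, adjusted p = 0.789). Without Clock 21-month replicate 2 these differences were 0.035 and 0.057. The genotype difference of miR-103-3p at 21 months, 0.080 (SE 0.12; limma, adjusted p = 0.946), was -0.0097 without it. The share of all mature probe sets whose old Clock hearts all lie above the young ones was not counted.

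The likeness of this pair over the hearts also rested on that array. Their Pearson correlation was 0.801 over the 12 hearts and 0.285 over the 11 without Clock 21-month replicate 2, as a description of arrays that share their scaling. Even over all 12, 38 of the other probe sets followed miR-103-3p more closely than miR-107-3p did. Of the 1907 others, the probe sets most like miR-103-3p over all 12 hearts were MIMAT0000152_st and MIMAT0000649_st, each with a correlation of 0.95. These correlations and the count of 38 were not recomputed without Clock 21-month replicate 2. For the other 7 miRNAs the closest probe set had a correlation between 0.79 and 0.91, and none of the closest was another of the 8. Whether the miR-103-3p and miR-107-3p probes bind each other's target was not tested.

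**Figure D2:**
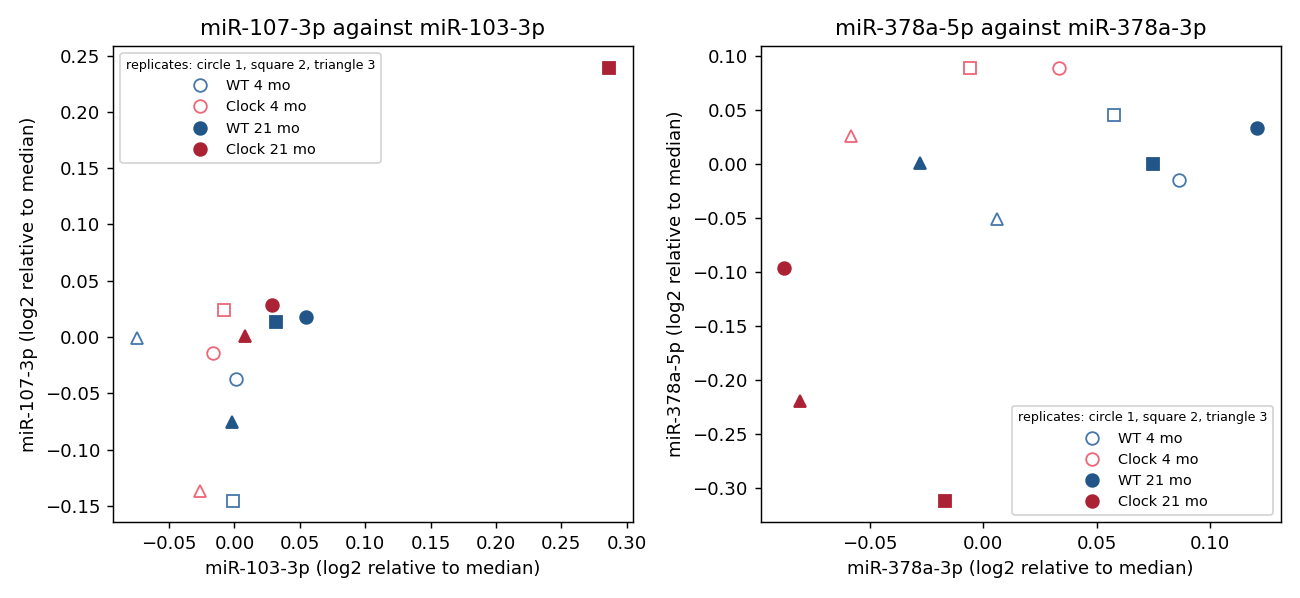
Left, miR-107-3p (y axis) against miR-103-3p (x axis) in each of the 12 hearts. Right, miR-378a-5p against miR-378a-3p. All values are log2 values less the median over the hearts, colours give the 4 groups, with open symbols for 4 and filled symbols for 21 months, and shapes give the replicates. On the left, Clock 21-month replicate 2 (0.29, 0.24) stands away from the other 11 hearts. On the right, the 3 old Clock hearts lie lowest for the 5p strand (-0.312 to -0.096).

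MiR-122-5p, the hepatocyte miRNA, was the most variable of the 8, and its variation lay within the groups. It was at -1.46, 0.53 and -1.165 in young wild type, at 0.63, 0.46 and -1.32 in young Clock and at 0.40, -1.0 and -0.87 in old Clock, while the old wild-type hearts were close together, at 0.12, -0.11 and 0.11. Of the other 9 hearts, 4 lay above all 3 old wild-type hearts and 5 below all of them, with hearts of each group on both sides. The standard deviation was 0.13 in that group and 0.77 to 1.08 in the other 3. The groups overlapped in every comparison, and the largest difference, old against young wild type, was 0.74 (SE 0.61, 95% interval -0.61 to 2.08; limma, adjusted p = 0.885), with a range from 0.36 to 1.35 when each array was left out. That interval includes both no difference and a 4-fold one. With no level left in the values, the amount of miR-122-5p in these ventricles could not be given.

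MiR-210-3p, the hypoxia miRNA, had its highest group mean in old wild type (0.39 ± 0.23, SD, n = 3), without passing the test. It was at -0.21, 0.21 and -0.30 in young wild type, at 0.050, -0.050 and -0.29 in young Clock, at 0.62, 0.38 and 0.17 in old wild type and at -0.33, 0.80 and -0.33 in old Clock. Only 2 of the 9 hearts of other groups lay above the lowest old wild-type heart, 1 of them a young wild-type heart. Old and young wild type thus overlapped and differed by 0.495 (SE 0.29, 95% interval -0.13 to 1.12), or 1.41-fold, with an adjusted p of 0.860 (limma). Clock 21-month replicate 2 enters this comparison only through the shared spread, and without it the unadjusted limma p was 0.0187. The lowest adjusted p over the removals of single arrays was 0.567 (limma). Old Clock hearts were split, with replicate 2 the highest of all 12 and the other pair the lowest of all 12. The genotype difference at 21 months was -0.35 (SE 0.29; limma, adjusted p = 0.894) with replicate 2 and -0.72 without it (unadjusted p = 0.00449, adjusted p = 0.435). The age difference in Clock was 0.14 (SE 0.29; limma, adjusted p = 0.910) and turned to -0.23 without it. Without that array the difference between the age effects of the genotypes was -0.73 (limma, unadjusted p = 0.0207, adjusted p = 0.839), against -0.35 with it. The genotype difference averaged over ages was -0.36 without that array (limma, unadjusted p = 0.0220) and -0.17 with it (limma, adjusted p = 0.871). Its lowest adjusted p over the removals of single arrays was 0.596 (limma).

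**Figure D3:**
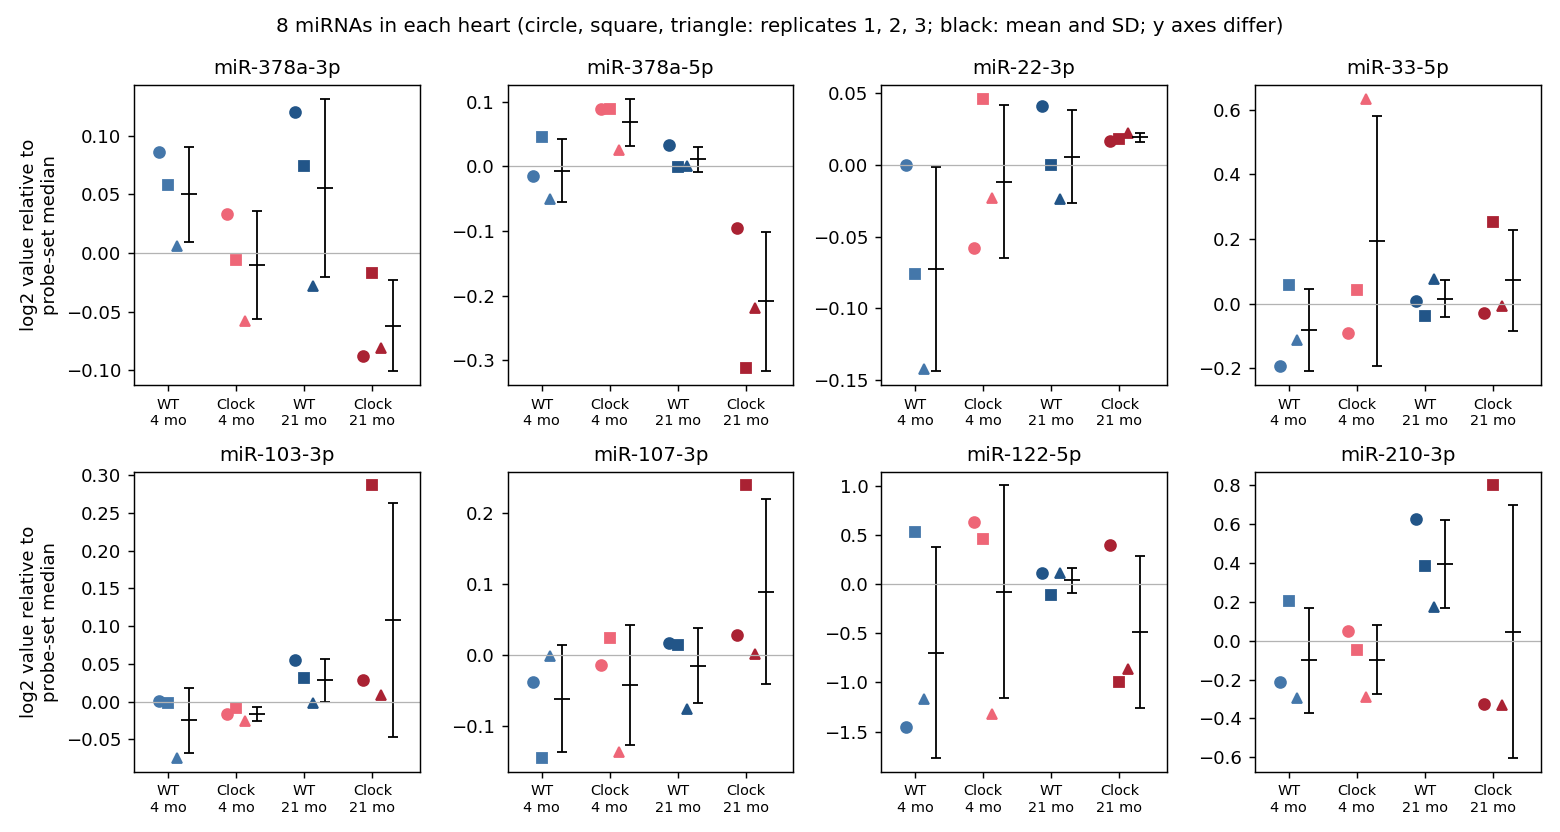
Level of each of the 8 miRNAs in each heart (y axis, log2 value less the median over the 12 hearts, with a different scale in each panel), by group (x axis). Circles, squares and triangles are replicates 1, 2 and 3, and black marks are the mean and SD of 3 hearts. The old Clock hearts lie lowest for miR-378a-5p, and the hearts of 3 groups are split for miR-122-5p.

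How large a difference in the measured values the data could still hide depended on the miRNA. The intervals bound the measured difference only, since a probe set that does not respond would also give a narrow one. For genotype at 4 months, the 95% interval lay within a 1.5-fold change in either direction for 5 of the 8 miRNAs, against 41.2% of all mature probe sets. The 3 exceptions were miR-33-5p, miR-122-5p and miR-210-3p. For genotype at 21 months it did so for 6 of 8 (42.2% of all), for age in wild type for 6 (41.4%) and for age in Clock for 6 (39.8%), and in each of these the exceptions were miR-122-5p and miR-210-3p. Averaged over the other factor, 6 of 8 lay within 1.5-fold for genotype (65.6% of all) and 6 for age (64.2%). For the interaction, whose error is larger, there were 4 (13% of all): both 3p miRNAs of the miR-103 and miR-107 pair, miR-22-3p and miR-378a-3p. With 3 hearts a group, these intervals rest on the spread within groups, pooled over all groups and drawn by limma towards a common value.

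The directions of the 8 were as follows. Old wild-type hearts had the higher mean for 8 of 8, with a median difference of 0.066 against 0.032 over all mature probe sets, and 6 of these 8 differences were under 0.10. Old Clock hearts had the higher mean for 4 and the lower for 4 (median -0.010 against 0.049 over all). Clock hearts had the higher mean for 7 of 8 at 4 months (median 0.040 against 0.00083) and for 4 of 8 at 21 months (median -0.052 against 0.0045). Of the 7 at 4 months, miR-210-3p (0.0048) changed sign in 4 removals of single arrays, miR-107-3p (0.019) in 2 and miR-103-3p (0.0082) in 1. Without Clock 21-month replicate 2, Clock hearts of 21 months had the higher mean than wild type for 2 of 8 (median -0.087 against 0.0075), and than young Clock for 3 of 8 (median -0.12 against 0.046). The comparisons share groups, so these counts do not add up as separate observations. The share of all mature probe sets with a higher mean was not counted.

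**Figure D4:**
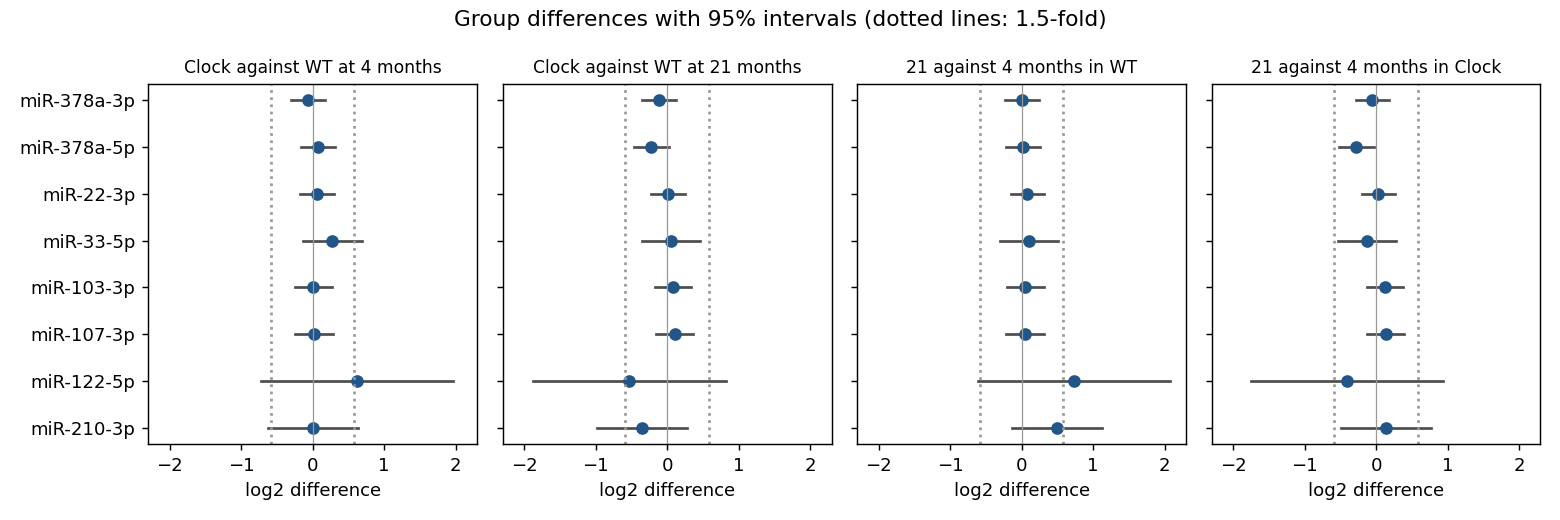
Difference between group means (x axis, log2) with its 95% interval from limma for each of the 8 miRNAs (y axis) in the 4 comparisons of 2 groups. Dotted lines mark a 1.5-fold change in either direction. The interval for miR-378a-5p lies wholly below 0 in 21 against 4 months in Clock (-0.52 to -0.034), and those of miR-122-5p reach well past the dotted lines in all 4 panels.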

How the data were processed

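The authors deposited 1 table of 3163 probe sets by 12 arrays (1908 mature, 1255 precursor), on a scale taken as log2. Per the labels' protocols, total RNA was extracted by the miRNeasy method and biotin-labelled by an Affymetrix procedure. The median of each probe set over the arrays was 0 within 1e-06, so the deposited log2 values are relative to it. How background was corrected and arrays were scaled is not stated in any source used. Names of the 8 miRNAs came with the list of their IDs. Other IDs could not be named, so partner arms, related miRNAs, precursors and cell type markers were not compared.

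One mean per group was fitted to the 12 arrays over all mature probe sets in limma 3.58.1 (R 4.3.3), with 8 residual and 2.82 prior degrees of freedom, and p-values were adjusted by Benjamini-Hochberg over all 1908 within each of 7 contrasts. No filter on signal was possible. The fit was tested on simulated data. All 8 miRNAs are named in every contrast by rule, and of the most similar probe sets only 2 IDs are printed. Members and lists were chosen with earlier results of these data known. Replicates are labelled biological, and 1 array was taken as 1 heart. The number of arrays limits the precision. Deviations of same-numbered arrays of different groups correlated between -0.107 and 0.116 (median 0.0145). Those of differently numbered arrays of different groups correlated between -0.196 and 0.131 (median -0.0014). Replicate numbers were therefore not taken to pair hearts, though these ranges cannot exclude a pairing.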

Additional observations from a re-analysis of the deposited data

How the results depend on the processing

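The analysis was repeated with arrays put on a common distribution by quantiles, with array medians subtracted, with array weights, with robust variances, with a replicate block, from the compared groups alone, with precursors included, at a threshold of 0.10, with p-values adjusted over the more variable probe sets (SD above the median), and without single arrays. Clock replicates 2 and 3 and wild-type replicate 2 of 4 months, which an earlier analysis had found to stand apart, were also left out together. Ordinary variances were added after seeing the data. Under these 23 settings the number of the 8 miRNAs called stayed 0 in each of the 158 counts, also with the replicate block and with any 1 array left out (0 to 0 calls). The lowest adjusted p of any of them was 0.159, for miR-378a-5p in 21 against 4 months in Clock with ordinary variances. Of 1222 recomputed differences, 1214 moved by less than the standard deviation within groups and 38 had the opposite sign, and 40 of the 56 differences kept their sign throughout. Many of the 1222 could not move. The block, the compared groups alone, precursors, the 0.10 threshold, other variances and adjustment over the more variable probe sets left differences as they were. So did removal of an array outside the groups compared. These counts are therefore no measure of stability. Without the 3 young hearts, which leaves 1 young Clock heart, the genotype difference of miR-122-5p at 4 months was 1.94 (adjusted p = 0.512). Adjustment over the more variable probe sets covered 2 of the 8 only. Signal over background could not be weighed, since no level is left in the values.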
